A study of Mus musculus with 16 samples.

Results

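This report describes 39 mouse genes that encode the DNA replication machinery and the enzymes that supply its nucleotides, out of 55421 gene IDs in the liver count table. They were chosen by name: 10 origin licensing genes, 6 genes of helicase activation, 6 polymerase and primase genes, 5 of the sliding clamp and its loader, 4 of flap cutting, ligation and single-strand binding, 5 of nucleotide supply, and 3 of methylation copying and E2F control. All 39 were among the 23018 genes with at least 10 counts in total, and all 39 were tested. To copy its genome a cell first loads the MCM helicase onto origins, with the origin recognition complex, Cdc6 and Cdt1. Cdc45 and the GINS complex then turn the loaded helicase into a moving fork, where polymerases, the clamp Pcna and ligase build the new strands from deoxynucleotides made by ribonucleotide reductase and thymidylate synthase. Hepatocytes of the adult liver are mostly out of the cell cycle and re-enter it after part of the liver is cut away.

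HIRA is a chaperone of histone H3.3, and the regeneration experiment asked whether renewed division of hepatocytes that lack it restores their chromatin and identity. Poly-A RNA of 16 liver samples from male mice was sequenced, 4 libraries in each of 4 groups: control and HIRA KO, before and after regeneration. The virus AAV8, with the hepatocyte promoter Tbg, was injected into every mouse at 6 months of age, lobes were resected 4 weeks after that, and what was left of the liver was taken 5 days on. Each KO group held 2 samples from HIRA fl/fl mice given Tbg-Cre and 2 from wildtype mice given saCas9 with a guide against HIRA, and each control group held 2 samples from wildtype mice given Tbg-Cre and 2 from those given saCas9 with a guide against Rosa26. The column names do not tie a library to one of these approaches or to one mouse. The resected left lateral and median lobes were the samples before regeneration and the remaining lobes, taken after CO2 euthanasia, those after it, so time, lobe and way of collection cannot be told apart. The promoter restricts deletion to hepatocytes, while whole tissue was sequenced, and Alb, the hepatocytes' main secreted protein, was at 78780 CPM or more in all 16 libraries.

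Total counts ranged from 15103059 to 21738619 per library, with a median of 18337571. Levels are given as CPM, the counts out of every 1000000 in the TMM-scaled library. Hira itself stood before regeneration at 5.77 ± 0.45 CPM in control and 3.54 ± 0.57 in HIRA KO (SD, n = 4), and after it at 5.67 ± 0.55 and 3.51 ± 0.71, with no overlap at either time (exact permutation test, p = 0.0286 at each, the smallest that 4 against 4 allows). In the fit across all genes Hira had an edgeR adjusted p of 0.129 before and 0.0666 after regeneration. In a principal component analysis 4 HIRA KO libraries, numbers 1 and 2 at each time, stood apart from the rest on the second component, which held 26.5% of the variance, and the HIRA KO results are also given without them, as counts and medians and for the genes whose call or value changed most.

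Promoter windows were searched for the site of E2F factors, which drive many replication genes. RefSeq (GRCm38.p6) held windows of 300 bases, from 250 before to 50 after a transcription start, for 32 of the 39 genes. Both strands were searched for 4 words of the E2F site (TTTGGCGC, TTTGCCGC, TTTCGCGC and TTTCCCGC), which can overlap each other. A word was found in 14 of the 32 genes (43.8%), against 2.61% of 27025 genes with a window and 1 of 18 genes of a mitosis list. The member windows held 59.3% G and C and all windows 53.8%. Stretches of 80 bases before the start, outside any annotated exon, are shown for 4 genes with large rises during regeneration, for Pola1, which holds a word and was not called with all libraries, and for Mcm10, the 1 gene that fell, which holds none within its window. The Mcm10 window ends in TTTGGCG, after its start and outside the stretch shown. Whether the word TTTGGCGC crosses that edge was not determined. Capitals mark the E2F words, and each line reads 5′ to 3′ along the gene's strand.
Mcm6, chr1:128359741-128359820, minus strand: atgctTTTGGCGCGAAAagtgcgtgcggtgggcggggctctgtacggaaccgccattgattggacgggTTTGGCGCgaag
Mcm5, chr8:75109322-75109401, plus strand: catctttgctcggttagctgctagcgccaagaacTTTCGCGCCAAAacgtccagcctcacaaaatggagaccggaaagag
Cdc6, chr11:98907982-98908061, plus strand: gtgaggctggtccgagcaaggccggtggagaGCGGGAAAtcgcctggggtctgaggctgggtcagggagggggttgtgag
Uhrf1, chr17:56304092-56304171, plus strand: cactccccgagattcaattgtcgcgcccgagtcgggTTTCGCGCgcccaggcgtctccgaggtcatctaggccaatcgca
Pola1, chrX:93632250-93632329, minus strand: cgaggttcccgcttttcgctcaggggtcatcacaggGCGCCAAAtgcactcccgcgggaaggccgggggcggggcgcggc
Mcm10, chr2:5012792-5012871, minus strand: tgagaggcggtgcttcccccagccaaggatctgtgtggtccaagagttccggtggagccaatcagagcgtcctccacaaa
Mcm6 held 3 words in its stretch and Mcm5 an overlapping pair, while the others with a word held 1. During regeneration the 14 genes with a word had median log2 fold changes of 1.34 (control) and 1.67 (HIRA KO), and the 18 without one of 0.59 and 0.64. Of the 14 genes 13 were called higher in control and 11 in HIRA KO, and of the 18 genes 9 and 8. Mcm2 (1.84 and 1.85) and Rrm2 (1.78 and 1.81) rose with no word in their windows. The words are a description of the window and not a measured binding site. CCAAT, the box bound by NF-Y, was in 62.5% of the member genes, 41.1% of all genes and 88.9% of the mitosis list. The words TTTGAA and TTTAAA of the CHR element were in 28.1% of member genes, 30.6% of all genes and 88.9% of the mitosis list.

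Most of the machinery rose during regeneration, in both genotypes. In control livers 25 of 39 genes were called higher after regeneration and 1 lower (edgeR adjusted p under 0.05), against 6.04% and 4.17% of all genes tested, and the median log2 fold change was 1.01, against 0.00 over all genes. In HIRA KO livers 24 were called higher and 0 lower, against 6.48% and 5.53% of all genes, with a median of 0.87 against 0.02. The libraries after regeneration all lay above those before it for 23 of the 39 genes in control and 24 in HIRA KO, where 10% and 8.61% of all genes did so. A fold change above 0 was found for 36 genes in control and 38 in HIRA KO, against 50.4% and 51.5% of all genes. The count in control dropped from 26 genes called in either direction to 14 and 13 without library 3 or 4 after regeneration, and to 17 without library 2 before it. With any 1 library left out, 12 genes stayed called in control (Cdc6, Dnmt1, Gins2, Lig1, Mcm2, Mcm5, Mcm6, Mcm10, Pole, Prim2, Rrm1 and Uhrf1) and 15 in HIRA KO (Cdc6, Cdt1, Dnmt1, Gins1, Gins2, Gins3, Lig1, Mcm2, Mcm3, Mcm5, Mcm6, Orc1, Rfc3, Rrm1 and Uhrf1), while every other call was lost in at least 1 of the 8 fits. Without the 4 HIRA KO libraries that stood apart 19 genes were called higher in HIRA KO, with a median of 1.23. Of the 24 genes 17 were called again, 7 were not (Cdc45, Dnmt1, Dut, Gins4, Mcm4, Orc1 and Rrm2), and Pola1 and Rfc5 were called in addition. That fit held 2 HIRA KO libraries at each time, and the SE of all 7 lost genes was larger in it. The fold changes of Cdc45, Dnmt1 and Rrm2 were larger there, and those of Dut, Gins4, Mcm4 and Orc1 smaller. In whole tissue, more cells of a type and more RNA per cell cannot be told apart.

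**Figure D1:**
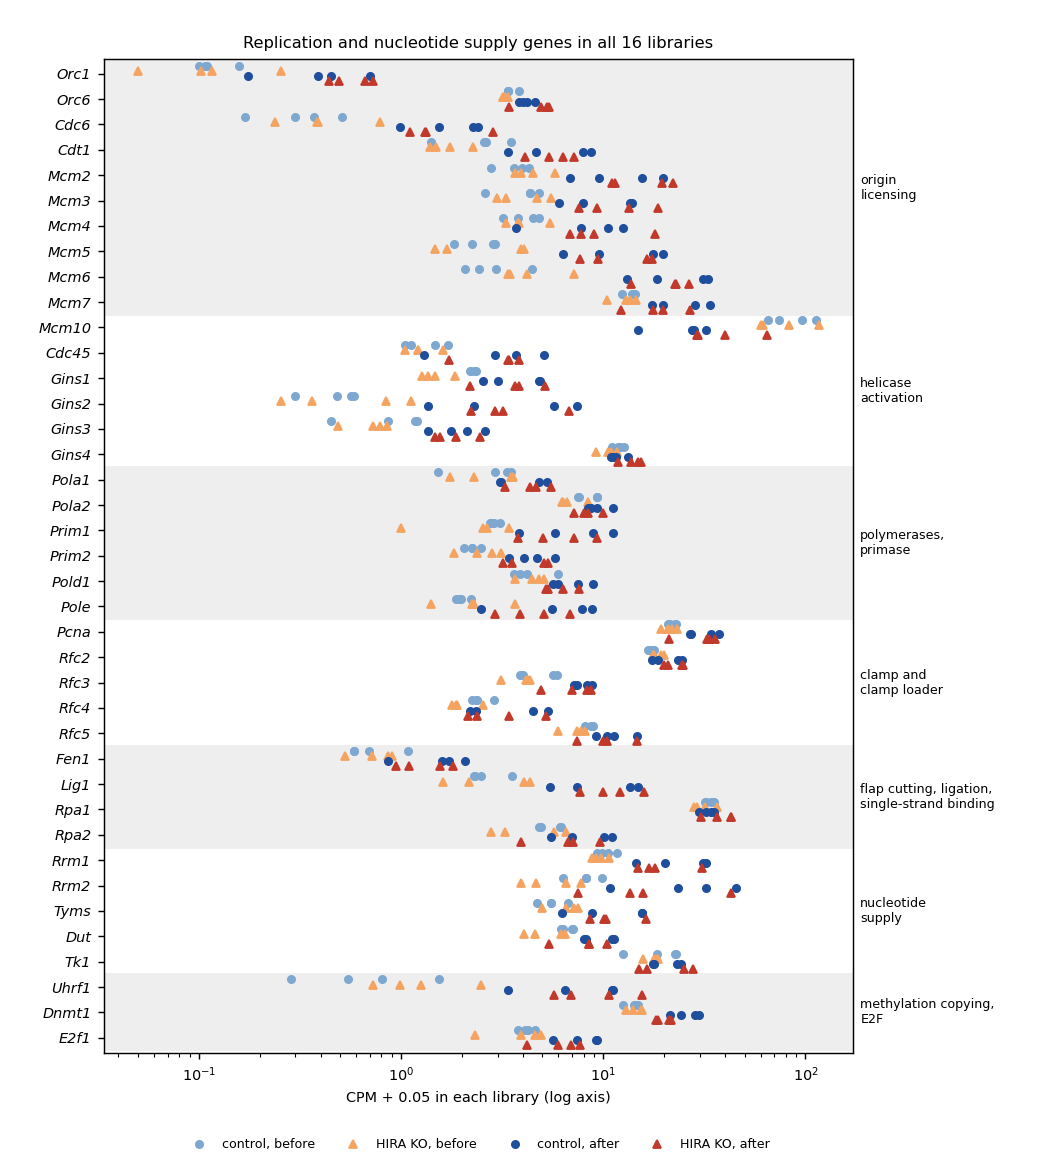
Each point is 1 library, with CPM + 0.05 on a log axis and the 39 genes in rows by role; circles are control, triangles HIRA KO, pale colours before and dark colours after regeneration. Genes such as Mcm6, Uhrf1 and Cdc6 move to the right in all libraries after regeneration, Rpa1 and Gins4 overlap between times in control, and Mcm10 moves to the left.

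**Figure D2:**
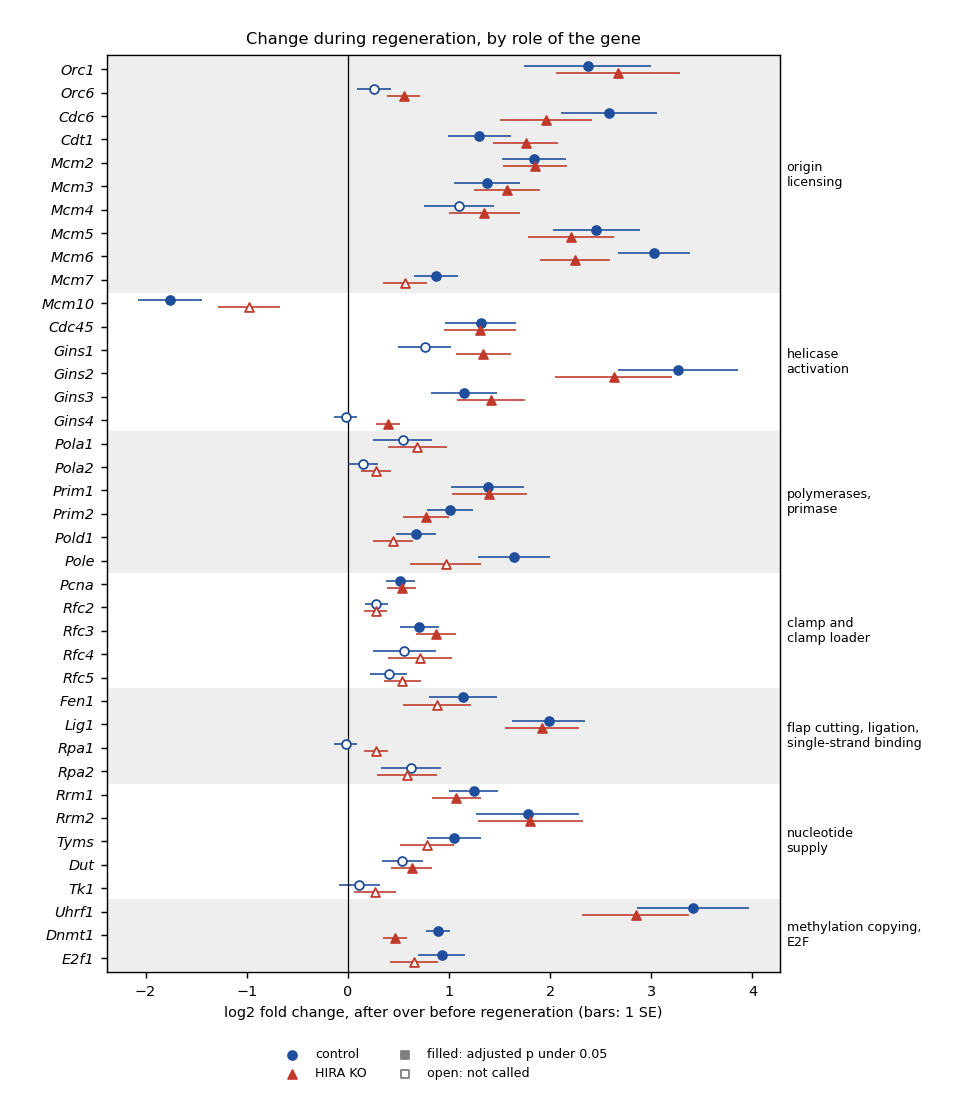
Log2 fold changes after over before regeneration with 1 SE, in control (circles) and HIRA KO (triangles), filled where the edgeR adjusted p is under 0.05. Uhrf1 (3.41 in control), Gins2 (3.27) and Mcm6 (3.03) lie farthest to the right and Mcm10 (-1.76) alone lies far to the left.

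Markers of Kupffer cells and macrophages rose at the same time. All 11 genes of the Kupffer cell and macrophage list were called higher after regeneration in both genotypes, and all were detected in every group. Their summed level rose from between 203.5 and 543 CPM in control before to between 889 and 1122 after. In HIRA KO it rose from between 281 and 318.5 to between 897 and 1327. The hepatocyte list had 0 of 10 genes called higher, 2 called lower in control and 3 in HIRA KO. The T and NK cell list had 0 of 9 genes called in either genotype. Of the B cell, stellate and cholangiocyte lists, 1 of 7, 1 of 10 and 1 of 7 genes were called higher in control and 0 in HIRA KO, and 0 lower in either. Of the 9 endothelial genes 1 was called higher (Cdh5) and 1 lower (Kdr) in each genotype, and 8 had fold changes below 0. Of all genes tested 6.04% were called higher and 4.17% lower in control, and 6.48% and 5.53% in HIRA KO. Single calls in lists this short are therefore not read as a result about those cells. The part of these cells in the rise of the replication genes was not tested.

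Of the origin licensing genes, 8 of 10 were called higher in control and 9 of 10 in HIRA KO, with medians of 1.61 and 1.80. Mcm6, a subunit of the helicase ring, stood at 2.39, 2.90, 4.41 and 2.01 CPM in the control libraries before and 13.0, 18.4, 31.1 and 33.0 after regeneration, and at 7.09, 4.13, 3.40 and 3.32 and 13.7, 22.7, 26.5 and 22.9 in HIRA KO. No library after regeneration reached down to those before it in either genotype. The log2 fold change was 3.03 ± 0.36 (SE; edgeR adjusted p = 0.000235) in control and 2.25 ± 0.35 (0.00114) in HIRA KO. Mcm5 was at 2.19, 2.80, 2.86 and 1.78 CPM before and 6.26, 9.46, 19.7 and 17.5 after in control, and at 3.86, 4.00, 1.43 and 1.63 and 7.61, 17.3, 16.4 and 9.41 in HIRA KO, again without overlap. Its log2 fold changes were 2.46 ± 0.43 and 2.20 ± 0.42. Mcm2 was at 2.74, 3.93, 4.24 and 3.55 CPM before and 6.83, 9.46, 15.5 and 19.8 after in control, and at 5.72, 3.87, 3.60 and 4.45 and 11.4, 22.0, 19.4 and 11.0 in HIRA KO. It rose by almost the same amount in both genotypes, 1.84 ± 0.32 and 1.85 ± 0.31 on the log2 scale. The other ring subunits rose less: Mcm3 by 1.38 and 1.58, Mcm4 by 1.35 in HIRA KO, with a value of 1.10 in control that missed the threshold (adjusted p = 0.0557), and Mcm7 by 0.87 in control, with 0.57 in HIRA KO (adjusted p = 0.104).

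Per kb of exon, the 6 ring subunits were unequal at rest and closer together after regeneration. In control before regeneration Mcm7 was the highest at 3.07 CPM per kb and Mcm2 the lowest at 0.519, a 5.91-fold range. After regeneration the range was 3.03-fold, from 1.85 for Mcm2 to 5.61 for Mcm7. In HIRA KO it was 4.58-fold before and 2.01-fold after, when Mcm6 had passed Mcm7 as the highest subunit at 4.60 CPM per kb. Mcm7 overlaps Cops6 and Ap4m1 on the other strand, and since use of strand in the counting is not stated, reads of these genes may be mixed.

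Cdc6 and Orc1 started from very low levels. Cdc6, an ATPase that helps load the ring, was at 0.249, 0.323, 0.458 and 0.118 CPM before and 0.940, 1.49, 2.34 and 2.21 after in control, and at 0.741, 0.333, 0.340 and 0.188 and 1.27, 2.80, 1.28 and 1.06 in HIRA KO. Both genotypes rose without overlap, by 2.58 ± 0.47 (adjusted p = 0.00247) and 1.96 ± 0.46 (0.0104). Cdt1, its partner in loading, was at 3.43, 2.53, 2.58 and 1.36 CPM before and 3.32, 4.59, 7.85 and 8.64 after in control, where the highest resting library exceeded the lowest regenerating one. In HIRA KO it was at 2.22, 1.33, 1.70 and 1.44 before and 4.03, 7.15, 6.26 and 5.34 after, with no overlap. The log2 fold changes were 1.30 ± 0.31 and 1.76 ± 0.32. Orc1, the large subunit of the origin recognition complex, had 0 to 3 counts in any resting library. Control was at 0.0497, 0.108, 0.0572 and 0.0592 CPM before and 0.125, 0.401, 0.654 and 0.336 after, and HIRA KO at 0.0529, 0.0667, 0.204 and 0 before and 0.680, 0.444, 0.617 and 0.390 after. Summed over libraries the counts went from 5 to 28 in control, a ratio of 5.90 per total count (95% exact interval 2.25 to 19.6), and from 5 to 45 in HIRA KO, a ratio of 7.56 (3.01 to 24.4); the intervals cover counting error only. Orc6, a subunit that is loosely bound to the complex, had small values, 0.26 ± 0.17 in control (adjusted p = 0.386) and 0.55 ± 0.17 in HIRA KO (0.0389).

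Helicase activation was split, with 3 of 6 genes called higher and 1 lower in control, and 5 higher in HIRA KO. Gins2, a GINS subunit, rose by 3.27 ± 0.60 in control and 2.63 ± 0.58 in HIRA KO, and its partner Gins3 by 1.15 ± 0.33 and 1.42 ± 0.34. Without the libraries that stood apart the HIRA KO value of Gins2 was 4.09 ± 0.99, still called. Gins1 was at 2.14, 2.26, 2.18 and 2.31 CPM before and 2.51, 2.98, 4.74 and 4.80 after in control, and at 1.43, 1.80, 1.22 and 1.32 and 2.13, 3.60, 5.12 and 3.78 in HIRA KO. It was called higher in HIRA KO (1.34 ± 0.27, adjusted p = 0.00437), and the control value of 0.76 ± 0.26 missed the threshold (0.0748). Gins4, the remaining subunit, was at 12.1, 11.0, 11.8 and 12.5 CPM before and 11.1, 11.5, 10.8 and 13.2 after in control, which overlap throughout. In HIRA KO it was at 10.5, 9.20, 10.9 and 11.6 before and 11.8, 14.8, 15.4 and 13.7 after. The log2 fold change was -0.02 ± 0.12 in control and 0.40 ± 0.12 (adjusted p = 0.0331) in HIRA KO, and 0.38 ± 0.15 (0.126) in HIRA KO without the libraries that stood apart. Gins4 held 8.79 CPM per kb at rest, 83.5 times the level of Gins2, and this range between the 4 subunits narrowed to 12.3 times after regeneration in control and from 54.0 to 15.6 times in HIRA KO. Cdc45, which joins GINS on the helicase, was at 0.995, 1.08, 1.66 and 1.42 CPM before and 1.25, 2.87, 5.01 and 3.65 after in control, and at 1.16, 1.00, 1.16 and 1.57 and 1.68, 3.33, 3.37 and 3.78 in HIRA KO. It rose by 1.32 ± 0.35 and 1.31 ± 0.35, and 1 control library after regeneration, at 1.25 CPM, lay within the resting range.

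Mcm10, a scaffold that stabilises the active helicase, went the other way. In control it was at 74.3, 113, 64.9 and 96.2 CPM before regeneration and 28.0, 32.3, 14.9 and 27.6 after it, with every regenerating library below every resting one, as was so for 8.98% of all genes. In HIRA KO it was at 60.0, 61.5, 82.6 and 116 before and 28.9, 39.8, 29.5 and 64.7 after, where 1 regenerating library, at 64.7 CPM, lay in the resting range. The log2 fold change was -1.76 ± 0.32 (edgeR adjusted p = 0.00312) in control and -0.98 ± 0.31 (0.0535) in HIRA KO, where DESeq2, another filter on low counts and a fit without robust weights did call it lower. The difference between the genotypes was 0.79 ± 0.43 (0.764). Mcm10 was also the member with the highest resting level per length, 11.3 CPM per kb in control and 10.4 in HIRA KO, above Pcna at 9.12 and 8.84. After regeneration it ranked 10 of 39 in control and 5 of 39 in HIRA KO. Its deposited FPKM fell likewise, from 44.7 ± 9.2 to 13.8 ± 4.2 in control and from 44.0 ± 13.0 to 24.8 ± 10.5 in HIRA KO (SD, n = 4). No annotated gene overlaps Mcm10 (chr2:4989714-5012791, minus strand).

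Among the polymerases, 4 of 6 genes were called higher in control and 2 of 6 in HIRA KO. Pole, the catalytic subunit of the leading strand polymerase, was at 1.94, 1.83, 2.18 and 1.89 CPM before and 2.44, 5.50, 8.72 and 7.78 after in control, and at 3.60, 2.20, 1.36 and 2.25 and 2.86, 5.02, 6.83 and 3.84 in HIRA KO. The control libraries did not overlap and the HIRA KO libraries did. Its log2 fold change was 1.64 ± 0.36 (adjusted p = 0.00720) in control and 0.97 ± 0.35 (0.0845) in HIRA KO, and the difference of -0.68 ± 0.50 did not pass its own test (0.827). Pold1, the catalytic subunit of the lagging strand polymerase, had 0.67 ± 0.20 in control, which was called, and 0.45 ± 0.20 in HIRA KO, which was not. Both primase subunits, which lay down the RNA primers, rose in both genotypes: Prim1 by 1.38 and 1.40, and Prim2 by 1.01 and 0.77. The polymerase alpha subunits that extend those primers were not called with all libraries. Pola1, its catalytic subunit, was at 3.43, 3.28, 2.86 and 1.48 CPM before and 3.07, 3.04, 5.23 and 4.75 after in control, and at 3.44, 3.53, 2.24 and 1.69 and 3.22, 4.62, 4.32 and 5.45 in HIRA KO, with values of 0.54 ± 0.29 (adjusted p = 0.280) and 0.68 ± 0.29 (0.136). Without the libraries that stood apart Pola1 was called in HIRA KO, at 1.32 ± 0.38 (0.0386), and Pole was at 1.58 ± 0.50 (0.0616). Pola2 was at 9.30, 7.42, 9.27 and 7.58 CPM before and 8.33, 9.23, 11.1 and 8.64 after in control, and at 8.36, 6.20, 6.25 and 6.58 and 7.12, 9.90, 8.35 and 7.96 in HIRA KO, with values of 0.15 ± 0.15 and 0.28 ± 0.15. Per kb, Prim1 overtook Pola2 as the highest of the 4 subunits in both genotypes, at 1.90 CPM per kb in control after regeneration.

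The clamp and its loader had the smallest median of the 7 roles, 0.52 in control and 0.54 in HIRA KO, with 2 of 5 genes called higher in each. Pcna, the ring that holds the polymerase on DNA, was at 21.3, 22.8, 22.6 and 21.0 CPM before and 27.0, 26.9, 37.2 and 34.2 after in control, without overlap, and at 19.3, 20.7, 23.0 and 21.9 and 21.2, 35.7, 33.2 and 32.6 in HIRA KO, where 1 regenerating library lay in the resting range. The rise was small, 0.52 ± 0.14 (edgeR adjusted p = 0.0266) and 0.53 ± 0.14 (0.0218). With 1 library left out Pcna stayed called in 2 of 8 fits in control and 5 of 8 in HIRA KO. Rfc3, a clamp loader subunit, was at 5.87, 3.82, 3.95 and 5.62 CPM before and 7.33, 7.11, 8.72 and 8.30 after in control, and at 4.07, 3.07, 4.28 and 4.20 and 4.85, 6.93, 8.68 and 8.24 in HIRA KO, with rises of 0.71 ± 0.20 and 0.87 ± 0.20. The remaining loader subunits were not called in either genotype with all libraries, with log2 fold changes in control of 0.28 for Rfc2, 0.56 for Rfc4 and 0.40 for Rfc5. Rfc5 was at 0.54 ± 0.18 (adjusted p = 0.0649) in HIRA KO, and was called there without the libraries that stood apart, at 0.87 ± 0.23 (0.0285). The 4 small subunits were within 2.05-fold of each other per kb at rest and 1.53-fold after regeneration in control. Rfc4 overlaps Eif4a2, a translation factor, on the other strand.

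Of the flap cutting, ligation and single-strand binding genes, 2 of 4 were called higher in control and 1 of 4 in HIRA KO. Lig1, the ligase that seals nicks between Okazaki fragments, was at 2.24, 2.26, 3.49 and 2.43 CPM before and 5.39, 7.34, 13.5 and 14.9 after in control, and at 4.29, 4.00, 1.56 and 2.13 and 9.97, 15.9, 12.1 and 7.62 in HIRA KO. No regenerating library overlapped a resting one, and the rises were 1.98 ± 0.36 (adjusted p = 0.00308) and 1.92 ± 0.36 (0.00349). Fen1, the flap endonuclease, was at 0.647, 0.538, 1.03 and 0.533 CPM before and 0.814, 1.55, 2.02 and 1.68 after in control, and at 0.847, 0.667, 0.476 and 0.814 and 1.04, 1.51, 1.75 and 0.890 in HIRA KO. It was called in control (1.14 ± 0.34, 0.0378) and not in HIRA KO (0.88 ± 0.34, 0.101), although the groups overlapped in control and did not in HIRA KO. Rpa1, the large subunit of the single-strand binding protein RPA, was at 32.3, 35.2, 33.9 and 31.8 CPM before and 29.7, 32.3, 34.1 and 35.2 after in control, and at 28.2, 31.9, 29.1 and 36.6 and 30.4, 42.9, 42.6 and 36.6 in HIRA KO. Its changes were -0.02 ± 0.11 and 0.28 ± 0.11, and those of its partner Rpa2 0.62 ± 0.30 and 0.58 ± 0.30, none of them called.

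Nucleotide supply showed a rise of 3 of 5 genes in each genotype. Rrm2, the limiting subunit of ribonucleotide reductase, was at 8.16, 9.84, 8.19 and 6.27 CPM before and 10.8, 23.4, 45.1 and 32.2 after in control, and at 4.60, 3.87, 6.46 and 7.70 and 7.43, 13.5, 42.6 and 15.6 in HIRA KO. The spread between regenerating libraries was wide, and the log2 fold changes of 1.78 ± 0.51 and 1.81 ± 0.52 passed narrowly (adjusted p = 0.0420 and 0.0400), the latter not without the libraries that stood apart (2.06 ± 0.67, 0.0918). Rrm1, the partner subunit, rose by 1.24 ± 0.24 and 1.07 ± 0.24, and Rrm2 went from 3.13 to 4.54 times the level of Rrm1 per kb in control and from 2.35 to 3.91 times in HIRA KO. Tyms, which makes thymidylate, was at 6.61, 5.49, 5.50 and 4.68 CPM before and 6.20, 8.77, 15.4 and 15.6 after in control, and at 7.14, 7.47, 6.53 and 4.95 and 8.52, 9.99, 16.2 and 10.2 in HIRA KO. It was called in control at 1.05 ± 0.27 and missed the threshold in HIRA KO at 0.78 ± 0.26 (adjusted p = 0.0626), as it did at 1.23 ± 0.41 (0.0807) without the libraries that stood apart. Dut, which clears dUTP, was at 7.01, 6.29, 6.12 and 6.98 CPM before and 7.96, 8.14, 11.2 and 11.0 after in control, and at 4.55, 4.00, 6.12 and 6.45 and 5.35, 8.48, 10.4 and 8.46 in HIRA KO, with the reverse pattern: 0.54 ± 0.20 was not called in control (0.0965) and 0.63 ± 0.20 was in HIRA KO (0.0490). Tk1, the salvage thymidine kinase, was at 22.9, 18.3, 22.7 and 12.4 CPM before and 17.7, 17.5, 23.2 and 24.2 after in control, and at 17.7, 15.6, 18.2 and 18.6 and 15.0, 25.0, 27.6 and 16.5 in HIRA KO. Its values of 0.11 ± 0.21 and 0.26 ± 0.21 were not called. Tk1 overlaps Afmid on the other strand, so part of its reads may belong to that gene.

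The genes that copy DNA methylation rose in both genotypes. Uhrf1, which recognises hemimethylated DNA, was at 0.497, 0.753, 1.49 and 0.237 CPM before and 3.32, 6.42, 11.0 and 11.1 after in control, and at 2.43, 1.20, 0.680 and 0.939 and 5.66, 15.4, 10.7 and 6.85 in HIRA KO. Its rise in control was the largest of the 39, 3.41 ± 0.56 (adjusted p = 0.00182), with 2.85 ± 0.53 (0.00361) in HIRA KO. Dnmt1, the methyltransferase that Uhrf1 recruits, was at 14.9, 14.1, 14.4 and 12.4 CPM before and 21.3, 24.1, 29.8 and 28.3 after in control, and at 15.5, 14.0, 12.9 and 15.3 and 18.6, 21.0, 21.7 and 18.3 in HIRA KO, with no overlap in either genotype. The rises were 0.89 ± 0.12 (0.000219) and 0.46 ± 0.12 (0.0149), and without the libraries that stood apart the HIRA KO value was 0.52 ± 0.18 (0.0733). E2f1, a transcription factor that drives replication genes, was at 4.03, 4.20, 3.72 and 4.56 CPM before and 5.57, 7.39, 9.10 and 9.31 after in control, and at 3.86, 2.27, 4.55 and 4.89 and 4.12, 7.64, 6.88 and 5.90 in HIRA KO. It was called in control (0.93 ± 0.23) and not in HIRA KO (0.65 ± 0.24, adjusted p = 0.0776).

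Genes that were lower at rest had larger fold changes. Over the 39 genes the log2 resting level per kb and the log2 fold change had a Pearson r of -0.74 and a Spearman rho of -0.75 in control, and of -0.69 and -0.71 in HIRA KO. Without Mcm10 the control values were -0.71 and -0.73. This is a description across genes of the same libraries, which are not independent replicates, and the resting level enters both measures. The 10 genes lowest at rest, at 0.0197 to 0.371 CPM per kb, had a control median of 1.48 on the log2 scale, and 9 of them were called higher. The 10 highest, at 1.89 to 11.3 CPM per kb, had a median of 0.40 and 4 called higher. In HIRA KO the same genes had medians of 1.36 and 0.43, with 7 and 5 called higher. Rrm2, at 2.93 CPM per kb, was high at rest and still rose, and Pola1, at 0.314, was low and was not called.

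**Figure D3:**
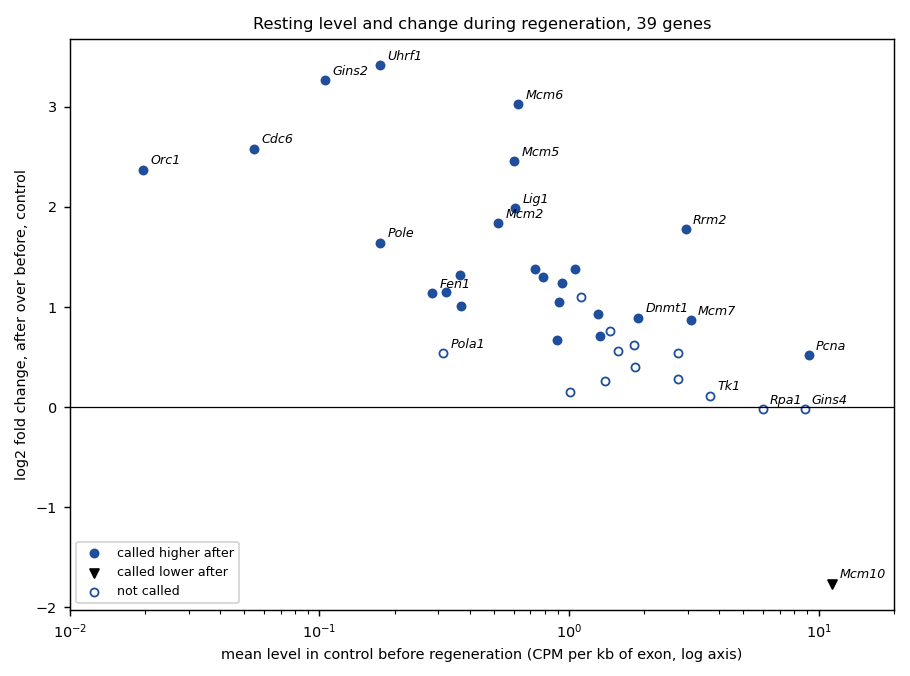
Each point is 1 of the 39 genes, with the mean control level before regeneration in CPM per kb of exon on a log axis and the control log2 fold change after over before regeneration. Points fall from Orc1, Gins2 and Uhrf1 at the upper left to Gins4 and Rpa1 near 0 and Mcm10 at -1.76 on the right.

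Related genes outside the 39 differed by list in the share called. Of all genes tested 6.04% were called higher and 4.17% lower in control, and 6.48% and 5.53% in HIRA KO. Of 32 further origin and fork proteins 11 were called higher in each genotype, with medians of 0.33 in control and 0.36 in HIRA KO; the list included Pole2 (3.27 and 1.77), Clspn (2.84 and 2.27) and the histone chaperone subunits Chaf1a (1.89 and 1.56) and Chaf1b (1.60 and 2.00). Of 8 licensing and firing regulators 6 were called higher in control and 4 in HIRA KO, among them the cyclins Ccne1 (2.18 and 2.17) and Ccna2 (4.58 and 2.91). Of 22 further nucleotide supply genes 2 were called higher and 2 lower in control, and 2 and 1 in HIRA KO. Dck, the deoxycytidine kinase, rose in both (0.68 and 0.53), and the folate enzyme Mthfd1 fell in control by 0.56. Of 13 E2F family and pocket protein genes 7 were called higher and 1 lower in control, and 2 and 1 in HIRA KO, with Rbl2, a pocket protein of resting cells, lower in both (-0.49 and -0.56). The mitosis list had 20 of 20 genes called higher in control and 19 of 20 in HIRA KO, with medians of 4.86 and 3.20. The difference of the rise between the genotypes was called for 0 genes of any of these lists. Its smallest edgeR adjusted p in the mitosis list was 0.756, so the genotypes are not shown to differ here.

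The size of the rise differed between libraries of one group. In control after regeneration, library 1 was the lowest of the 4 for 29 of the 39 genes, and libraries 3 and 4 were the highest for 24 and 14. In HIRA KO after regeneration, library 1 was the lowest for 29 genes, library 3 the highest for 20 and library 2 for 15. The summed level of the 10 licensing genes was 63.6, 80.8, 141 and 138.5 CPM in control libraries 1 to 4, and that of the 20 mitosis genes 78.7, 291.5, 664 and 538. In HIRA KO the licensing sums were 68.5, 132, 125 and 91.5, and the mitosis sums 127, 77.7, 618 and 170. HIRA KO library 2, one of those that stood apart, thus had a licensing sum near those of control libraries 3 and 4 with the lowest mitosis sum of its group. Before regeneration the licensing sums were 31.8 to 40.2 CPM in control and 34.2 to 46.7 in HIRA KO.

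**Figure D4:**
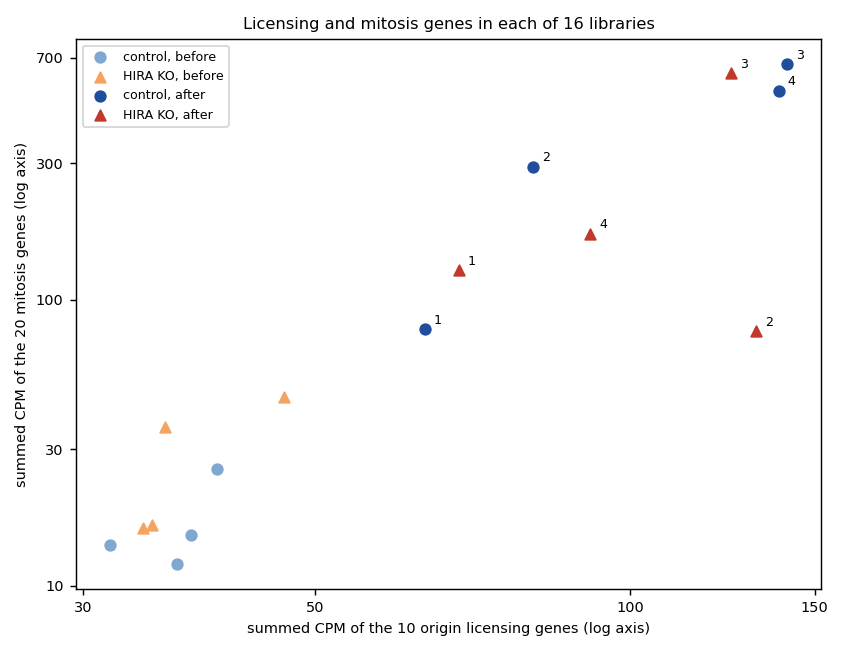
Each point is 1 of 16 libraries, with the summed CPM of the 10 origin licensing genes and of the 20 mitosis genes on log axes; circles are control, triangles HIRA KO, pale before and dark after regeneration, with library numbers on the latter. Both sums rise after regeneration, and HIRA KO library 2 lies low on the mitosis axis (77.7) for its licensing sum (132).

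HIRA KO against control gave no call among the 39 genes at either time. Before regeneration 0 of 39 were called by edgeR, where 0.0391% of all genes were, and 0 by DESeq2. The share of all genes that DESeq2 called is not given here for any comparison, so its counts of 0 have no background beside them. An unadjusted edgeR p under 0.05 was found for 1 of 39, against 3031 of all 23018 genes. After regeneration 0 of 39 were called by edgeR, where 0.491% of all genes were, and 0 by DESeq2. The unadjusted edgeR p was under 0.05 for 3 of 39, against 3629 of all 23018 genes. The log2 fold changes ran from -0.62 to 0.84 before, with a median of -0.07, and from -0.50 to 0.67 after, with a median of -0.10, so that none exceeded 1 in size. The median after regeneration had no stable sign, since it ran from -0.243 to 0.0887 with 1 library left out and was 0.0887 without the libraries that stood apart. Their SE ran from 0.115 to 0.796 before and from 0.114 to 0.498 after. The difference of the genotype effect between the times is also the difference of the regeneration rise between the genotypes. It was called for 0 of 39 genes and for 0% of all genes by edgeR, and for 0 of 39 by DESeq2. For 2 of 39 its unadjusted edgeR p was under 0.05, against 1568 of all 23018 genes. The calls of a single genotype given above (7 genes in control and 5 in HIRA KO) are therefore not shown to differ between the genotypes.

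**Figure D5:**
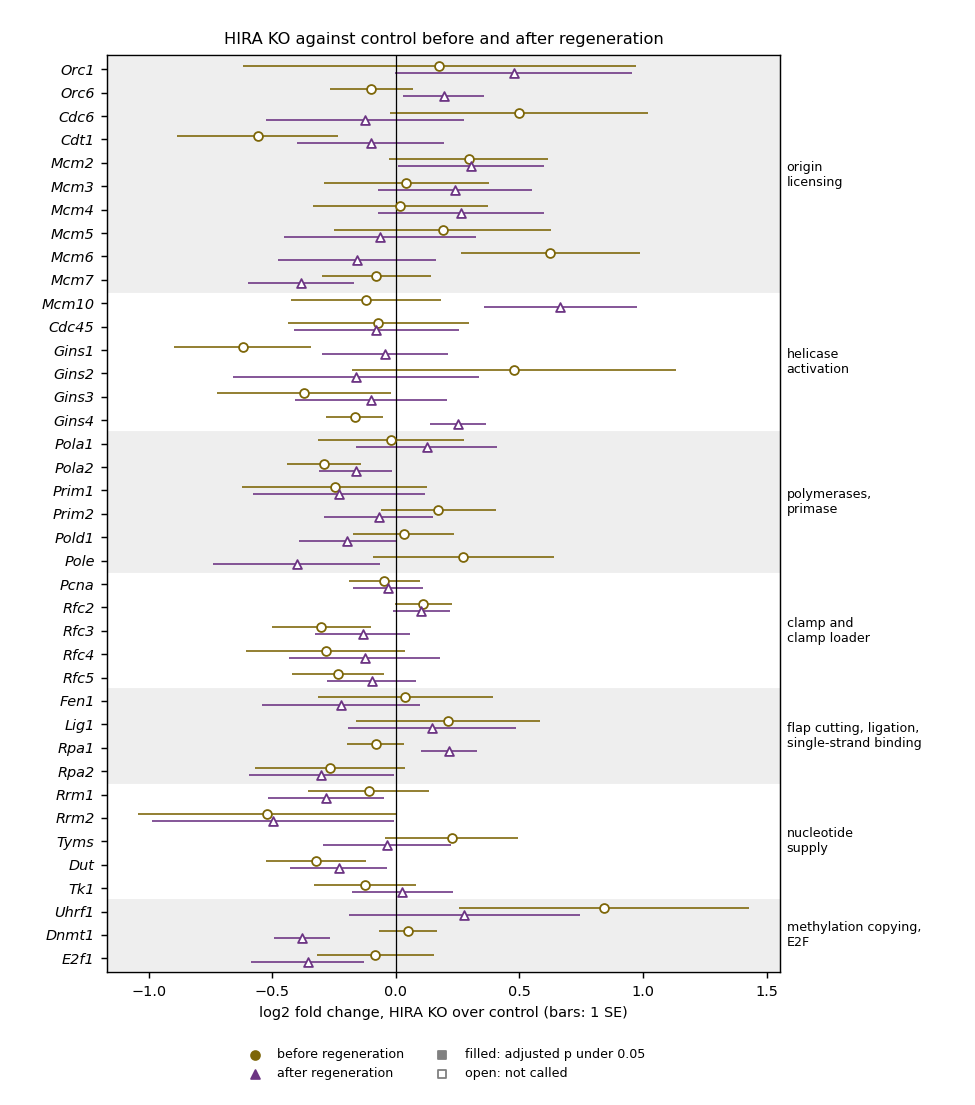
Log2 fold changes of HIRA KO over control with 1 SE, before (circles) and after regeneration (triangles), for the 39 genes by role; all symbols are open because no gene was called. All values lie between -0.62 and 0.84 and both signs occur in most roles.

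Dnmt1, Gins4 and Mcm10 had the smallest p after regeneration. Dnmt1 was -0.38 ± 0.11 in HIRA KO against control (edgeR adjusted p = 0.117), with 3 of the 4 HIRA KO libraries below the lowest control library, and the difference from the effect before regeneration was -0.43 ± 0.16 (0.613). Gins4 was 0.25 ± 0.11 (0.294), with 3 of 4 libraries above all controls and a difference between times of 0.42 ± 0.16 (0.620). Mcm10 was 0.67 ± 0.31 (0.314), and Rpa1, next by p in the test of the difference after Dnmt1 and Gins4, had 0.30 ± 0.16 (0.756). Before regeneration the smallest p belonged to Gins1 at -0.62 ± 0.28 (0.349), followed by Pola2 at -0.29 ± 0.15 (0.419) and Cdt1 at -0.56 ± 0.33 (0.481). Gins1 was the 1 gene of 39 whose groups did not overlap before regeneration, lower in HIRA KO as 4.53% of all genes were, and 0 of 39 were higher without overlap, where 3.54% of all genes were. After regeneration 0 of 39 were without overlap in either direction, against 3.65% of all genes higher and 4.45% lower.

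The pairs of HIRA KO libraries differed from each other. Before regeneration, both libraries that stood apart were above all controls for 7 genes (Mcm5, Gins2, Pola1, Prim2, Pole, Lig1 and Tyms) and below all controls for 7 (Mcm10, Gins1, Gins4, Pcna, Rpa2, Rrm2 and Dut). The other pair was above all controls for 0 genes and below for 9 (Orc6, Mcm5, Gins1, Pola2, Prim1, Rfc4, Rfc5, Lig1 and Rrm1), so that Mcm5 and Lig1 lay on opposite sides of control in the 2 pairs. After regeneration the pair that stood apart was below all controls for Rfc3 and Dnmt1, and the other pair above for Orc6, Gins4 and Rpa1. The share of all genes that lay so was not computed for pairs of libraries, and the pairs were split on these same data. These counts describe the libraries and are no result about the 39 genes. The libraries that stood apart also held higher summed levels of stellate markers before regeneration (719 and 520 CPM, against 241 to 270 in control), of cholangiocyte markers (167 and 119, against 69.4 to 98.6) and of B cell markers (116 and 59.7, against 10.8 to 38.0). T and NK cell markers were higher there too (10.7 and 8.94, against 3.73 to 6.58). The part of these cells in the values of these libraries was not tested. Without these libraries 0 of 39 genes were called in HIRA KO against control at either time and in the difference, with medians of -0.10 before, 0.09 after and 0.18 in the difference. The sign of the fold change turned for 15 genes before regeneration and 14 after it. Dnmt1 was then at -0.35 ± 0.15 (edgeR adjusted p = 0.393), Gins4 at 0.33 ± 0.13 (0.343) and Mcm10 at 0.89 ± 0.38 (0.424) after regeneration, and Gins1 at -0.80 ± 0.32 (0.680) before it.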

How the data were processed

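Poly-A RNA-seq libraries were prepared by the authors with a strand-marking kit, 16 in 4 groups of 4. The authors' methods name Trim Galore, STAR, the mm10 build and HOMER counting, while the submitters' processing notes name STAR, HTSeq and Cufflinks, so which tool made the deposited counts, and whether it used strand, is not settled by these sources. The deposited count table holds raw read counts for 55421 gene IDs, and the authors' second table holds FPKM, used here for description only; in 2 of its HIRA KO columns 1 gene's value exceeds 1000000.

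Counts were fitted with edgeR 4.0.16 (robust quasi-likelihood F test, TMM scaling, 4 group means over all 16 libraries, genes with at least 10 counts in total), with Benjamini-Hochberg adjustment over 23018 genes and calls at an adjusted p under 0.05. The SE of a log2 fold change was taken as its size over the root of its F statistic. The study's own tool, DESeq2 1.42.0, was an alternative. Gene positions and exon lengths come from GENCODE M21 (GRCm38), in which 54587 gene IDs matched with version. Replicates are separate samples in the labels. By the authors' methods the resected lobes gave the tissue before regeneration, and the same mice then recovered and gave the tissue after it. Before and after samples are therefore paired wherever a mouse was sequenced at both times. Column names do not tie such pairs, so the fits treat the samples as independent and leave the pairing out. Values in every library are given for genes listed by name and for any member with one of the 3 smallest p in a genotype test. The members and gene lists were chosen with earlier results of these data known, so agreement with a list's name is no independent support. Scripts ran in R 4.3.3 and Python.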

Additional observations from a re-analysis of the deposited data

Results flagged for a closer look

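In 5 of 156 groups of 4 libraries (39 genes, 4 groups), 1 library lay far from the other 3, by the ratio of its gap to the group's whole range; chance flags about 1 in 20 groups. Orc6 was high in control library 2 before regeneration (3.77 CPM against 3.31 to 3.33, ratio 0.961). Orc1 was high in the same library at a ratio of 0.837, which rests on 2 counts against 1. Lig1 was high in control library 3 before regeneration (3.49 CPM against 2.24 to 2.43, ratio 0.849). Rfc4 was high in HIRA KO library 1 before regeneration (2.49 CPM against 1.73 to 1.84, ratio 0.865). Cdc6 was high in HIRA KO library 2 after regeneration (2.80 CPM against 1.06 to 1.28, ratio 0.872), and both of these HIRA KO libraries stood apart in the principal component analysis.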

How the results depend on the processing

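No paired analysis was possible because the column names carry only a running number that no label ties to a mouse. With another scaling, DESeq2, other filters on low counts, a fit without robust weights or only the groups compared, 24 to 29 of the 39 genes were called in control during regeneration, and 17 to 29 in HIRA KO when the fit without the libraries that stood apart is included. With 1 library left out the counts were 13 to 28 in control and 16 to 28 in HIRA KO. The lowest control counts came without library 4 (13) or 3 (14) after regeneration and without library 2 before it (17). The HIRA KO comparisons and the difference between times had 0 of 39 called under every alternative run, and the share of all genes called under each is not given here. The median of HIRA KO against control after regeneration (-0.0986) ran from -0.0986 to 0.0887 under the other settings and from -0.243 to 0.0887 with 1 library left out, and that of the difference between times (0.0159) from 0.0159 to 0.18 and from -0.193 to 0.195, so neither median kept its sign with 1 library left out. Directions reversed in control for 3 genes near 0 with 1 library left out: Gins4 ranged from -0.119 to 0.0204, Rpa1 from -0.086 to 0.0379 and Tk1 from -0.052 to 0.215 on the log2 scale. Over the genes' own results, 528 kept direction and call under the other settings, 20 lost the call and 17 gained it; with 1 library left out these were 611, 94 and 9, and 6 reversed. The cause was not tested. Orc1 was dropped by filterByExpr. Depth limits Orc1, Cdc6 and Gins2 at rest most.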
